A study of Mus musculus with 4 samples.

Results

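The natriuretic peptide genes and a set of cardiac stress genes were examined across the arrays of a study of Erbb4 silencing in mouse cardiomyocytes. The set held 9 genes, Nppa, Nppb, Ankrd1, Xirp1, Xirp2, Edn1, Rcan1, Fhl1 and Flnc, of 14992 named genes tested. They were chosen by name, through the RefSeq accession of each probe, and each was measured by 1 probe. All 9 probes were well above background, the scanner software's call for a detected spot, on all 4 arrays.

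The cells were cardiomyocytes derived from CGR8, a single mouse embryonic stem cell line, so they are cells differentiated in culture and not heart tissue. One group received a small interfering RNA against Erbb4 (siErbB4, 2 samples), and the other a scrambled small interfering RNA (siScr, 2 samples). Erbb4 encodes a receptor tyrosine kinase that binds neuregulins. Both groups were transfected with the Pepmute reagent for 48 hours and kept in DMEM-LG with 2% fetal bovine serum. An incubation lasting either 6 or 24 hours is also given, with no word on which samples it applies to. Title and transfection field set the groups, although every sample's description mentions si-Scr, and for the siErbB4 sample numbered 2 the source field reads ErbB5. Nothing says that the samples numbered 1 and 2 came from separate cultures, so p-values measure the spread between these samples, which may be technical.

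ANP and BNP, the products of Nppa and Nppb, are hormones that heart muscle secretes when it is stretched or loaded. They act through guanylyl cyclase receptors and cyclic GMP to promote salt loss and relax vessels. Nppa is high in the embryonic heart, falls in the ventricle after birth and returns in hypertrophy, which is why it is read as a marker of both immaturity and stress. Endothelin-1, from Edn1, is a peptide that drives cardiomyocyte growth and contracts vessels, and Rcan1 encodes an inhibitor of calcineurin whose transcription calcineurin and NFAT can induce. Ankrd1, Xirp1, Xirp2, Fhl1 and Flnc encode proteins of the sarcomere, the Z-disc and the intercalated disc that respond to mechanical load.

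Promoters of both natriuretic peptide genes, Ankrd1 and Edn1 are shown, 4 of the members whose levels separated by replicate number below. Each is the RefSeq sequence of assembly GRCm38.p6 on the gene's strand, from 250 bases before the annotated start to 50 after it. Nppb (chr4:147985650-147985949) and Nppa (chr4:148000472-148000771) lie on the plus strand, with 0 genes between them in the RefSeq gene table. Ankrd1 (chr19:36119795-36120094) lies on the minus strand and Edn1 (chr13:42301226-42301525) on the plus strand. Capitals mark matches to the motifs named after the sequences.
Nppa: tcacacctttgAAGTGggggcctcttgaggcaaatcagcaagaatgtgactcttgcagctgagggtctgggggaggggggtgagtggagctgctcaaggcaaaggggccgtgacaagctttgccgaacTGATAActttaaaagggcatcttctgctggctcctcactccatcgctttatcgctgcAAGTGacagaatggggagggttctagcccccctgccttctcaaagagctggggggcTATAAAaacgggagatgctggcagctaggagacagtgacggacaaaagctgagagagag
Nppb: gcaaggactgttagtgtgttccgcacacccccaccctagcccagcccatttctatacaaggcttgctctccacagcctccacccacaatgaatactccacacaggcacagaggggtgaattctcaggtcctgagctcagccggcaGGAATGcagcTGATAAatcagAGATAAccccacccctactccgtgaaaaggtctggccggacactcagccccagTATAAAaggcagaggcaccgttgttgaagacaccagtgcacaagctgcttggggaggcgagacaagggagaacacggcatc
Ankrd1: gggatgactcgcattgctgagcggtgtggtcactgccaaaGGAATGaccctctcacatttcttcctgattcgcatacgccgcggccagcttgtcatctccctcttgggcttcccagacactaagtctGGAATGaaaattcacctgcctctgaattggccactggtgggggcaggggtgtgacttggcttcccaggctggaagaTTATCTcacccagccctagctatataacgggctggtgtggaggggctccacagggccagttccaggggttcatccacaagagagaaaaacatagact
Edn1: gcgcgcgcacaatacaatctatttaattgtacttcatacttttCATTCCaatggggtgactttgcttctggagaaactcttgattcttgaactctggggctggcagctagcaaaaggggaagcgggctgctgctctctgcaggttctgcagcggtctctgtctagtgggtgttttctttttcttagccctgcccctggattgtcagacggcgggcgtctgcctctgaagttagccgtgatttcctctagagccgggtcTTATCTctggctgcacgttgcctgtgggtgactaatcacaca
The motifs were searched on both strands, except TATAAA, which was searched on the gene's strand. They were a GATA motif (AGATAA or AGATAG or TGATAA or TGATAG), the M-CAT motif CATTCC bound by TEAD factors, the NKX2 core AAGTG, the AP-1 motif TGANTCA, and the CArG box of SRF. Positions count from the annotated start, with -1 the base just before it. Nppa held 1 GATA match, at -122 to -117, and 2 NKX2 matches, while Nppb held 2 GATA matches, at -95 to -90 and -84 to -79, just after its single M-CAT match at -105 to -100. In Ankrd1 there were 2 M-CAT matches and 1 GATA match, and in Edn1 1 of each. None of these motif matches overlapped another. Of 32851 mouse promoters of the same length, 29.8% held the GATA motif, 14.7% M-CAT, 46.4% NKX2, 7.81% AP-1, 1.63% the CArG box and 8.32% TATAAA. A match of these letters is a description and does not show a bound site.

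Precision is limited by the number of arrays, 4 in all. Array brightness was similar, with a 75th percentile of 878 to 989 signal units, between 64.8% and 68.5% of probes were well above background, and 0 spots were saturated. The Erbb4 probe was well above background only on siErbB4 replicate 2, with processed signals of 2.83 and 15.0 in siErbB4 1 and 2 and 9.02 and 11.9 in siScr 1 and 2, so it gives no check of the silencing. All 16 cardiomyocyte markers were well above background on all 4 arrays. Levels below are log2 processed signals after subtracting the log2 75th percentile of the same array, so that 0 is the 75th percentile and each unit is a doubling. The level of one gene's probe is not comparable with that of another, since probes differ in how well they hybridise.

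No member passed the test for siErbB4 against siScr, which does not show that levels were equal. Against siScr, 0 of the 9 members reached an adjusted p of 0.05 in limma, nor did any of the 20725 features tested (0%), of which 365 had an unadjusted p under 0.05. The members' differences ran from -0.32 for Nppa to 0.34 for Xirp2, 7 below 0 and 2 above it, with a median of -0.08 beside -0.01 over all features. Only Xirp2 had siErbB4 and siScr levels that did not overlap, 1 of 9 members, where 29% of all features did so. A gene whose levels separate by replicate number cannot also separate by group, so the replicate differences given below limit this count. With 2 arrays against 2, an exact permutation test cannot give a two-sided p under 0.333.

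Between the replicate numbers, each with 1 siErbB4 and 1 siScr array, 2 members passed the test. Nppa rose 2.47-fold in replicate 2, and Edn1 fell to 0.494 of its replicate 1 level. These 2 calls among 9 members stand beside a background where 5.23% of all features were called. The single higher call stands beside 2.9% of features called higher, and the single lower call beside 2.34% called lower. The replicate 2 and replicate 1 levels did not overlap for 7 of 9 members, 77.8%, all but Xirp2 and Rcan1, where 55.4% of all features did so. Among these 7 the differences of Xirp1 (-0.08) and Flnc (0.05) were very small. The median member difference was 0.18 against 0.02 over all features. The replicate 2 arrays lay at slide positions 1 and 2 and the replicate 1 arrays at positions 3 and 4, so replicate number and slide position cannot be told apart.

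**Figure D1:**
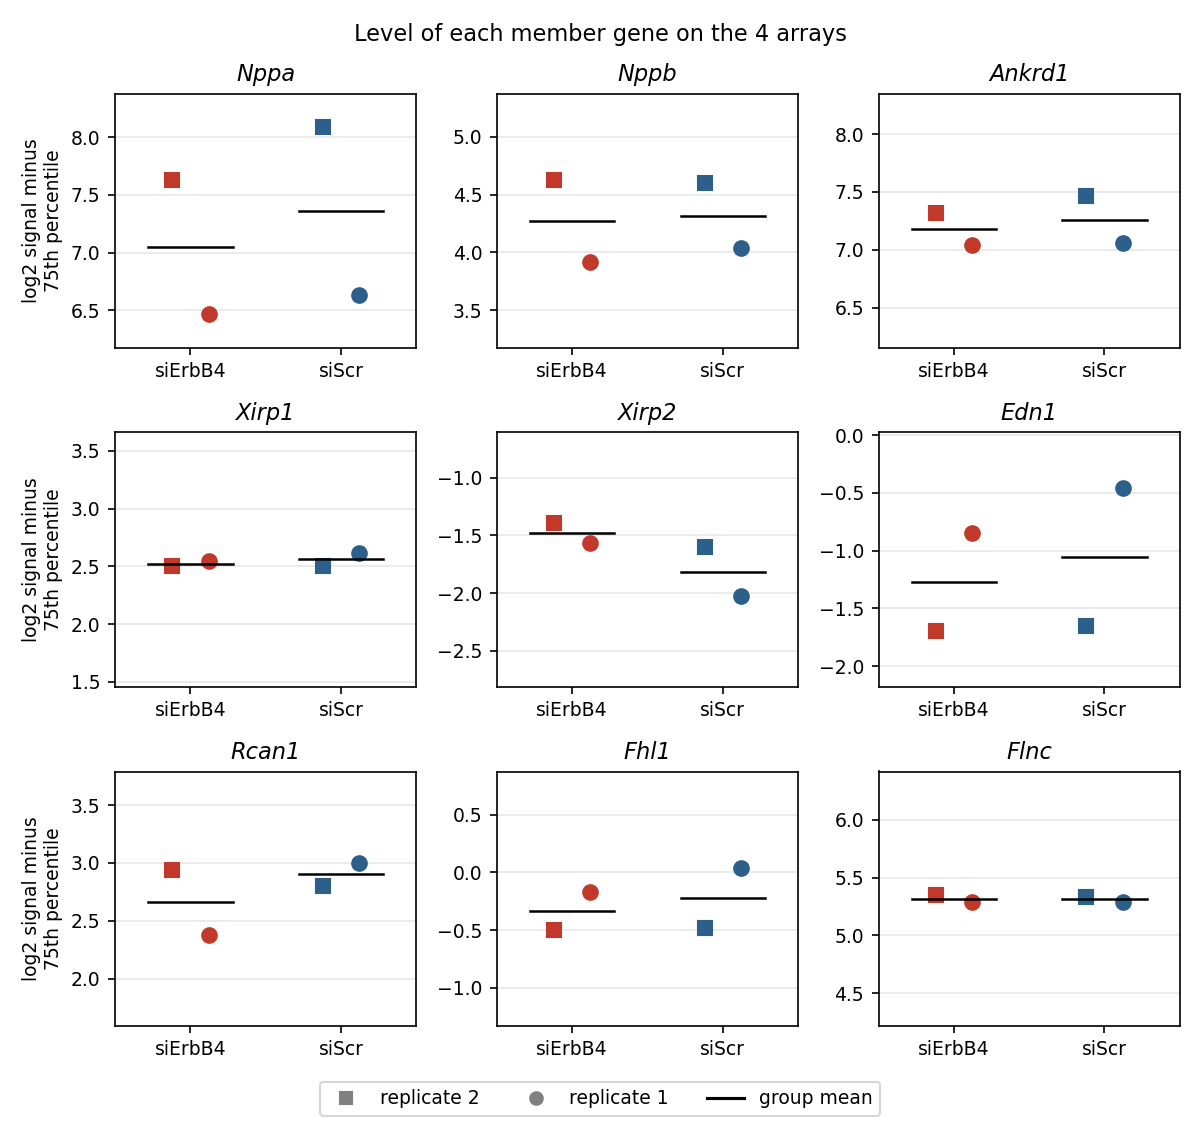
Level of each of the 9 genes (log2 signal relative to its array's 75th percentile) in siErbB4 and siScr cells, with replicate 2 as squares, replicate 1 as circles and the group mean as a line. Panels span equal ranges, so that the separation of squares and circles for Nppa (6.47 to 8.09 over the 4 arrays) and Edn1 (-1.69 to -0.46) can be read against the flat Flnc (5.29 to 5.35).

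Nppa, which encodes atrial natriuretic peptide, had levels of 6.47 and 7.63 in siErbB4 1 and 2, against 6.64 and 8.09 in siScr 1 and 2. The processed signals behind them were 83399 and 185312 in siErbB4, against 98299 and 238735 in siScr. Both replicate 2 arrays were high and both replicate 1 arrays low, and the ranges of the groups overlapped. Means were 7.05 ± 0.82 in siErbB4 and 7.36 ± 1.03 in siScr (SD, n = 2 each). Their difference was -0.32 with a 95% interval of -2.15 to 1.52 (limma adjusted p = 1.00), an interval that spans more than a 2-fold change in either direction. The difference was -0.46 within replicate 2 and -0.17 within replicate 1.

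Between replicates, Nppa was 1.31 higher in replicate 2 (SE 0.19, 95% interval 0.81 to 1.81, limma adjusted p = 0.0372). The difference had the same sign in both groups, 1.16 within siErbB4 and 1.45 within siScr. It ranked number 262 of 20725 features by size among those higher in replicate 2. The call did not hold when any 1 array was left out: the limma adjusted p was 0.0761 without siErbB4 1, 0.0540 without siErbB4 2, 0.0852 without siScr 1 and 0.102 without siScr 2, while the difference stayed between 1.08 and 1.54. Without the filter on dim probes the adjusted p was 0.147.

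The Nppa probe is printed 10 times on the array, which gives the measurement error within an array. After outlier spots were left out, 10 and 9 spots remained in siErbB4 1 and 2, with signals of 81181 to 85182 and 179175 to 191971. In siScr 1 and 2, 9 and 10 spots remained, with signals of 93784 to 100656 and 218668 to 255517. The 4 sets of spots did not overlap. Their SD was 0.02 to 0.08 on the log2 scale, far below the 1.31 between replicates. Repeated spots carry 1 labelled RNA and say nothing about variation between cultures.

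**Figure D2:**
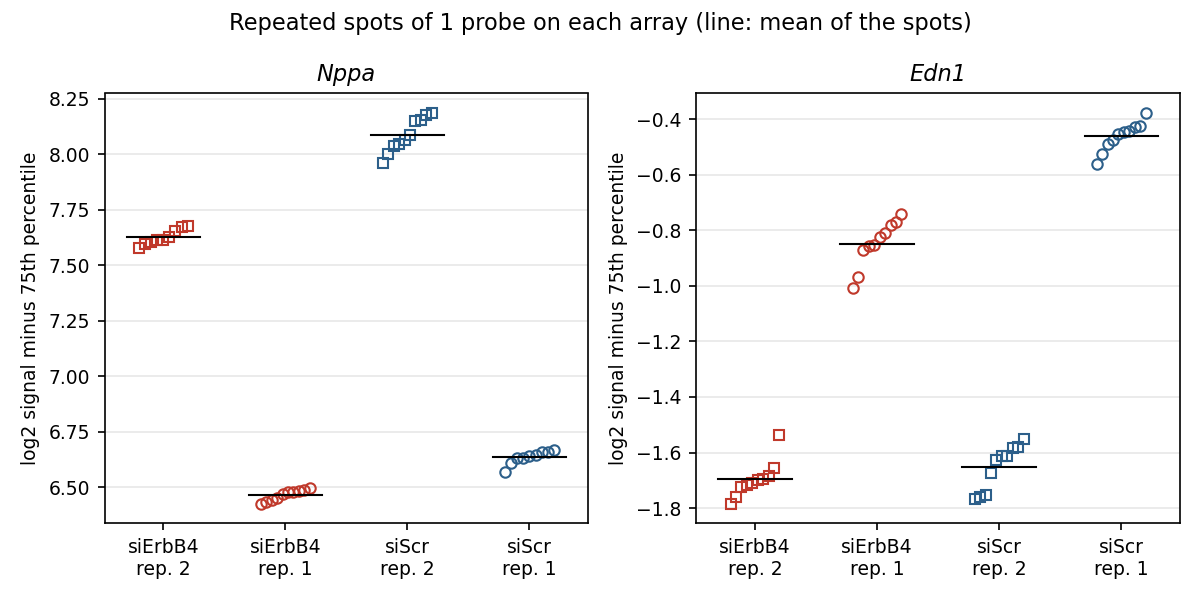
Each symbol is 1 spot of the Nppa or Edn1 probe on 1 array, as log2 signal relative to its array's 75th percentile, with squares for replicate 2, circles for replicate 1 and a line at the mean of the spots. For Nppa all 4 arrays are apart, while for Edn1 the replicate 2 spots of siErbB4 (272 to 323 in signal) overlap those of siScr (258 to 300).

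Nppb, which encodes brain natriuretic peptide and lies next to Nppa, had levels of 3.92 and 4.63 in siErbB4 1 and 2, against 4.03 and 4.60 in siScr 1 and 2. Again the replicate 2 arrays were high and the replicate 1 arrays low, and the groups overlapped. The siErbB4 minus siScr difference was -0.04 (95% interval -0.99 to 0.90, limma adjusted p = 1.00), from 0.03 within replicate 2 and -0.12 within replicate 1. In replicate 2 against replicate 1 the difference was 0.64 (SE 0.11, limma adjusted p = 0.0509), just short of the threshold, with 0.71 within siErbB4 and 0.57 within siScr. In 4 settings it went past the threshold: normexp background correction (limma adjusted p = 0.0102), median scaling (0.0489), the filter requiring detection on all 4 arrays (0.0371) and an intensity trend (0.0115). Others moved it away from the threshold, with adjusted p-values of 0.0635 with quantile normalization, 0.186 without the filter on dim probes, 0.279 without siErbB4 2 and 0.276 without siScr 2.

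The rest of the natriuretic peptide system was read from 13 genes, of which 10 were tested. The third natriuretic peptide Nppc, the ANP and BNP receptor Npr1 and Ostn, whose product binds the clearance receptor, were not well above background on both arrays of either group. None of the 10 was called for siErbB4 against siScr, with a median difference of -0.20. Furin, a protease that cuts the BNP precursor, had 3.12 and 3.28 in siErbB4 against 3.47 and 3.50 in siScr, a difference of -0.29 (SE 0.14, limma adjusted p = 1.00). Pde2a, a phosphodiesterase that cyclic GMP stimulates, had -1.20 and -1.27 in siErbB4 against -1.004 and -1.03 in siScr, a difference of -0.22 (limma adjusted p = 1.00). The groups did not overlap in 3 of the 10 genes, these among them (30%), close to the 29% of all features.

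Between replicates, 1 of the 10 rose in replicate 2 and 1 fell, where 2.9% of all features rose and 2.34% fell, and the median difference was 0.08. Pde9a, a phosphodiesterase specific for cyclic GMP, rose by 1.70 (SE 0.20, limma adjusted p = 0.0270), but its signals were only 26.0 in siErbB4 and 33.2 in siScr of replicate 2 and 8.55 and 10.8 in those of replicate 1. It was not well above background on siErbB4 1, and with normexp the difference was 0.27 (adjusted p = 0.222). Prkg2, a cyclic GMP-dependent kinase, fell by 1.77 (SE 0.23, limma adjusted p = 0.0315), with signals of 26.0 in siErbB4 and 20.8 in siScr of replicate 2 and 67.2 and 106 in those of replicate 1, and with normexp its difference was -0.59. Both calls were lost without siErbB4 2, siScr 1 or siScr 2, with adjusted p-values of 0.0514, 0.0632 and 0.0654 for Pde9a and 0.0622, 0.0543 and 0.0797 for Prkg2. Without siErbB4 1 the adjusted p was 0.0544 for Pde9a and 0.0304 for Prkg2.

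Edn1, the endothelin-1 precursor, moved the other way from Nppa. It had levels of -0.85 and -1.69 in siErbB4 1 and 2, against -0.46 and -1.65 in siScr 1 and 2. Here the replicate 1 arrays were high and the replicate 2 arrays low, and the groups overlapped. The siErbB4 minus siScr difference was -0.21 (95% interval -1.67 to 1.24, limma adjusted p = 1.00), from -0.04 within replicate 2 and -0.38 within replicate 1.

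In replicate 2 Edn1 fell by 1.02 against replicate 1 (SE 0.16, 95% interval -1.45 to -0.59, limma adjusted p = 0.0452), with -0.85 within siErbB4 and -1.19 within siScr. Its 10 spots had signals of 272 to 323 in siErbB4 and 258 to 300 in siScr of replicate 2, against 469 to 564 in siErbB4 and 670 to 761 in siScr of replicate 1. The spots of the replicate 2 arrays overlapped each other and lay below every replicate 1 spot. The call held without siErbB4 1 (limma adjusted p = 0.0308) and was lost without siErbB4 2 (0.152), siScr 1 (0.0621) or siScr 2 (0.144), and without the filter on dim probes (0.165).

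Of 6 other endothelin genes 4 were tested, and Edn3 and Ece2 were not kept. None was called in either comparison, beside 0% of all features between the groups and 5.23% between the replicates. The receptor Ednra had 2.55 in siErbB4 and 2.48 in siScr of replicate 2, against 2.23 and 1.92 in those of replicate 1, a difference of 0.44 (SE 0.15, limma adjusted p = 0.176). Ece1, the enzyme that releases mature endothelin-1, differed by -0.67 between replicates (SE 0.28, limma adjusted p = 0.251) and by -0.55 between siErbB4 and siScr (SE 0.36, limma adjusted p = 1.00). That group difference was -0.81 without siErbB4 1, -0.29 without siErbB4 2, -0.14 without siScr 1, -0.96 without siScr 2 and -0.30 with normexp. The receptor Ednrb had -4.30 and -4.36 in siErbB4 against -4.37 and -4.74 in siScr, a difference of 0.23 that was -0.11 with the mean of its probes.

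Ankrd1, a cardiac ankyrin repeat protein of the sarcomere's I-band and the nucleus, had levels of 7.04 and 7.32 in siErbB4 1 and 2, against 7.05 and 7.46 in siScr 1 and 2. The replicate 2 arrays again held the higher values, and the groups overlapped. The siErbB4 minus siScr difference was -0.08 (95% interval -0.67 to 0.51, limma adjusted p = 1.00). In replicate 2 against replicate 1 it was 0.34 (SE 0.11, limma adjusted p = 0.172), with 0.28 within siErbB4 and 0.41 within siScr. Its processed signals, 124240 to 155010, were below the saturation value of 778553. An intensity trend alone among the settings took the replicate difference past the threshold (limma adjusted p = 0.0447).

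Xirp1 and Xirp2 encode Xin actin-binding repeat proteins, which bind actin filaments at the intercalated disc. Xirp1 had 2.55 and 2.50 in siErbB4 1 and 2, against 2.62 and 2.50 in siScr 1 and 2, a difference of -0.04 (95% interval -0.40 to 0.33, limma adjusted p = 1.00). The 4 values lay within 0.12 of each other, and replicate 2 minus replicate 1 was -0.08 (SE 0.11, limma adjusted p = 0.705). Xirp2 had -1.57 and -1.39 in siErbB4 1 and 2, against -2.03 and -1.60 in siScr 1 and 2. Both siErbB4 values lay above both siScr values, though the gap between the nearest of them, siErbB4 1 and siScr 2, was small. Its difference was 0.34, or 1.26-fold (SE 0.20, 95% interval -0.23 to 0.90, limma adjusted p = 1.00), with 0.21 within replicate 2 and 0.46 within replicate 1. Between replicates Xirp2 differed by 0.30 (SE 0.20, limma adjusted p = 0.437).

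Fhl1, a LIM-domain protein of the sarcomere, had -0.17 and -0.49 in siErbB4 1 and 2, against 0.04 and -0.48 in siScr 1 and 2. Both replicate 2 arrays lay below both replicate 1 arrays, the direction of Edn1, and siErbB4 overlapped siScr. The siErbB4 minus siScr difference was -0.11 (95% interval -0.80 to 0.58, limma adjusted p = 1.00), and the replicate difference was -0.43 (SE 0.12, limma adjusted p = 0.138). Flnc, the muscle filamin that crosslinks actin at the Z-disc, had 5.29 and 5.35 in siErbB4 1 and 2, against 5.29 and 5.33 in siScr 1 and 2. All 4 Flnc values were nearly equal, and the difference was 0.01 between siErbB4 and siScr (95% interval -0.35 to 0.36) and 0.05 between replicates (95% interval -0.23 to 0.32). The first Flnc difference was -0.01 with normexp background correction and kept its sign under quantile and median scaling (0.05 and 0.03), while the second was -0.01 with quantile normalization.

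Relatives of these structural genes, 13 listed and all tested, were not called for siErbB4 against siScr (median difference -0.13). Between replicates, 2 of the 13 rose in replicate 2 and 1 fell, beside 2.9% and 2.34% of all features. Ankrd2, a stretch-responsive relative of Ankrd1, had -0.94 in siErbB4 and -1.04 in siScr of replicate 2, against -2.10 and -2.33 in those of replicate 1, and rose by 1.22 (SE 0.13, limma adjusted p = 0.0249). Nrap, an anchoring protein of the intercalated disc named after its value was seen, rose by 0.86 (SE 0.12, limma adjusted p = 0.0331). Without siErbB4 2, siScr 1 or siScr 2 the calls of Ankrd2 and Nrap were lost, with adjusted p-values of 0.0543 to 0.174, and without siErbB4 1 that of Nrap was lost (0.0550) while that of Ankrd2 held (0.0308). The LIM-domain relatives Fhl3 and Fhl5 differed between siErbB4 and siScr by -0.24 and -0.19 (limma adjusted p = 1.00 for both).

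Rcan1 did not follow the replicate number. Its levels were 2.38 and 2.94 in siErbB4 1 and 2, against 3.003 and 2.80 in siScr 1 and 2. The lowest value was that of siErbB4 1 and the highest that of siScr 1, so neither the groups nor the replicates separated. The siErbB4 minus siScr difference was -0.24 (95% interval -0.92 to 0.43, limma adjusted p = 1.00), made of 0.14 within replicate 2 and -0.62 within replicate 1. Replicate 2 minus replicate 1 was 0.18 (SE 0.23, limma adjusted p = 0.702), made of 0.56 within siErbB4 and -0.20 within siScr, and Rcan1 was the only member whose replicate difference had opposite signs in the groups. Opposite signs of the siErbB4 minus siScr difference in the replicates were seen for 2 of 9 members, Rcan1 and Nppb, and for 38.4% of all features.

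All 21 other genes of calcineurin, NFAT and MEF2 signalling were tested, and none was called for siErbB4 against siScr (median difference -0.04). Hdac9, a class IIa deacetylase that represses MEF2, had -0.74 and -0.63 in siErbB4 against -1.06 and -1.01 in siScr, a difference of 0.35 (SE 0.13, limma adjusted p = 1.00). Cabin1, which inhibits calcineurin, differed by -0.17 (limma adjusted p = 1.00), or by 0.05 with the mean of its probes. Between replicates 1 of the 21 was called, higher in replicate 2, beside 2.9% of all features called higher. Myoz2, the Z-disc protein calsarcin-1 that tethers calcineurin, had 2.95 in siErbB4 and 2.89 in siScr of replicate 2, against 1.00 and 1.45 in those of replicate 1, and rose by 1.70 (SE 0.18, limma adjusted p = 0.0244). That call held without siErbB4 1 (0.0304) and was lost without siErbB4 2 (0.0621), siScr 1 (0.0509) or siScr 2 (0.0638). Rcan2, a paralog of Rcan1, had 3.50 and 3.58 in replicate 2 against 3.04 and 3.09 in replicate 1, a difference of 0.47 (SE 0.11, limma adjusted p = 0.0846).

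**Figure D3:**
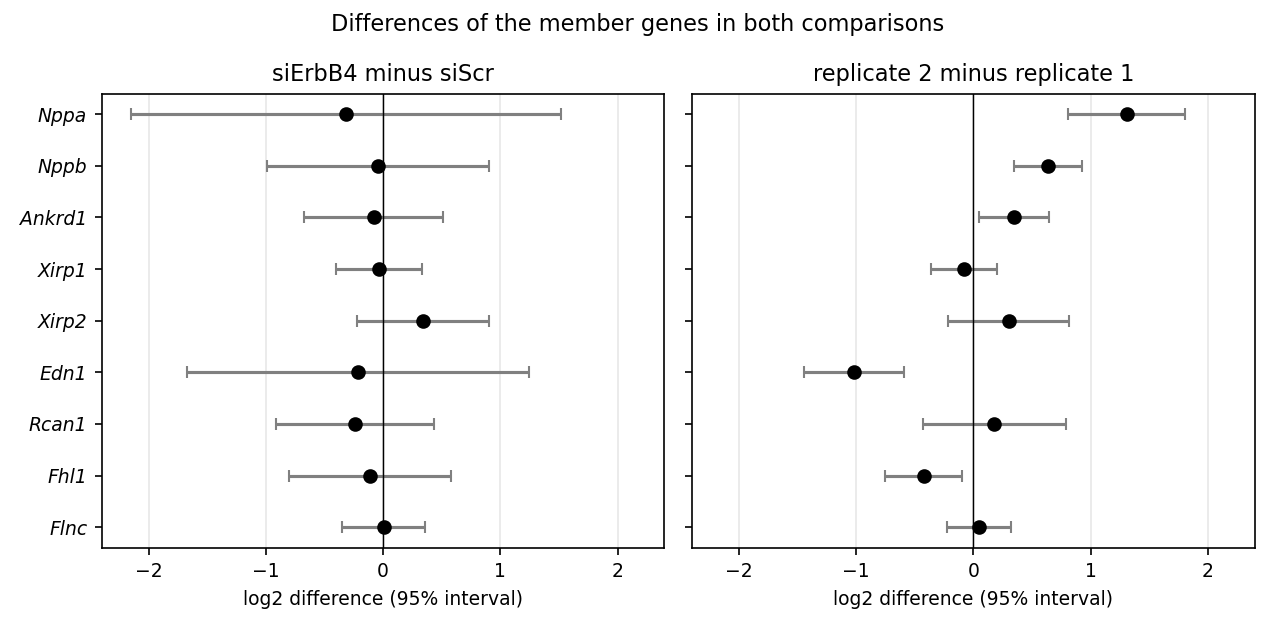
Log2 differences of the 9 genes with 95% limma intervals, siErbB4 minus siScr on the left and replicate 2 minus replicate 1 on the right, on the same scale. All 9 intervals on the left cross 0 and those of Nppa and Edn1 are the widest. On the right Nppa (1.31) and Edn1 (-1.02) lie farthest from 0.

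The SRF, TEAD and YAP list held 18 genes, transcription factors that act at CArG and M-CAT motifs and their targets. For siErbB4 against siScr 0 were called, beside 0% of all features, with a median difference of 0.09. For replicate 2 against replicate 1, 0 were called, beside 5.23% of all features, with a median difference of -0.11. Ccn1, a matricellular target of YAP, differed between replicates by -0.80 (SE 0.22, limma adjusted p = 0.125), and Vgll4, a TEAD cofactor that competes with YAP, by -0.45 (SE 0.13, limma adjusted p = 0.139). Yap1 itself had 4.11 and 4.25 in siErbB4 against 4.03 and 4.01 in siScr, a difference of 0.16, and Lats2, a kinase that restrains YAP, differed by 0.17 (limma adjusted p = 1.00 for both).

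Among 27 other hypertrophy and stress genes 0 were called for siErbB4 against siScr. Nr4a1, an immediate early nuclear receptor, had 2.26 and 1.85 in siErbB4 against 1.48 and 1.39 in siScr, a difference of 0.63 (SE 0.19, limma adjusted p = 1.00). Myc had -1.77 and -1.98 in siErbB4 against -2.25 and -2.27 in siScr, a difference of 0.39 (SE 0.15, limma adjusted p = 1.00). In replicate 2, 2 of the 27 fell and 0 rose against replicate 1, beside 2.34% and 2.9% of all features, with a median of -0.22. Tgfb2, a growth factor of the TGF-beta family, had 3.65 in siErbB4 and 3.61 in siScr of replicate 2, against 4.38 and 4.57 in those of replicate 1, and fell by 0.84 (SE 0.12, limma adjusted p = 0.0352). Its call held without siErbB4 1 (0.0378) and was lost without siErbB4 2 (0.156), siScr 1 (0.0656) or siScr 2 (0.176). Over all 6 companion lists 93 of 98 genes were tested, and in replicate 2 against replicate 1, 4 of the 93 rose and 4 fell, beside 2.9% and 2.34% of all features.

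Markers of cell types that the cultures could hold also differed between the replicates. The summed level of the 16 cardiomyocyte markers, in multiples of the array's 75th percentile, was 2206 in siErbB4 and 2341 in siScr of replicate 2, against 1725 and 1790 in those of replicate 1. Of these markers 15 of 16 were higher in replicate 2, with a median difference of 0.48, and 3 were called higher, beside 2.9% of all features. Those of fibroblasts and matrix, 10 of 11 well above background on all arrays, summed to 7.55 in siErbB4 and 9.68 in siScr of replicate 2, against 23.4 and 40.4 in those of replicate 1. Of 10 tested, 1 was higher in replicate 2, and the median difference was -1.33, with 3 called lower, beside 2.34% of all features.

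The 7 smooth muscle markers, 5 of them well above background on all arrays, summed to 241 in siErbB4 and 248 in siScr of replicate 2, against 429 and 541 in those of replicate 1. Of 6 tested, 2 were higher in replicate 2 and 3 were called lower, beside 2.34% of all features, and the median difference was -0.57. The sum rested mainly on Acta2 and Tagln, which differed by -1.22 and -1.04. Smtn and Mylk were the 2 higher genes (0.41 and 1.63), and Myh11 was not kept by the filter. Mylk was dim, with -5.63 in siErbB4 and -5.75 in siScr of replicate 2, against -8.57 and -6.07 in those of replicate 1. Its difference rested mainly on siErbB4 1 (SE 0.83, limma adjusted p = 0.327). The 10 endothelial markers, 7 of them well above background on all arrays and of which Emcn was well above background on no array, summed to 6.13 in siErbB4 and 7.39 in siScr of replicate 2, against 6.01 and 6.17 in those of replicate 1. The genes of that list mostly went the other way from its sum, with 2 of 8 tested higher in replicate 2 and a median difference of -0.46. Of these 0 were called, beside 5.23% of all features called either way.

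Of 11 skeletal muscle markers, 5 were well above background on all arrays, and the factors Myod1, Myog, Myf5 and Pax7 were so on no array. The list summed to 72.3 in siErbB4 and 89.2 in siScr of replicate 2, against 52.5 and 61.4 in those of replicate 1. That sum rested almost wholly on Myh8, with levels of 5.69 to 6.46, while the other tested genes lay below 0. Of 5 tested, 4 were higher in replicate 2 and 0 were called, beside 5.23% of all features called either way. Of 8 pluripotent, 4 epicardial and 4 neural markers tested, 0 were called, beside 5.23% of all features called either way. In the endoderm and macrophage lists, 1 of 4 tested markers each was called higher in replicate 2, beside 2.9% of all features. All 4 tested endoderm markers were higher there (median difference 0.81). Of 4 tested macrophage markers 2 were higher (median -0.06), with differences from 3.24 for Lyz2 to -2.35 for Adgre1. For siErbB4 against siScr 0 markers were called. In that comparison 7 of 8 pluripotent stem cell markers were higher in siErbB4 (median 0.38), and 62.5% did not overlap between the groups. Their sums were 39.5 and 29.8 in siErbB4 1 and 2, against 25.2 and 26.8 in siScr 1 and 2. These sums rested mainly on Dppa5a, with 4.87 and 4.43 in siErbB4 1 and 2, against 4.22 and 4.22 in siScr 1 and 2. Of 10 fibroblast and matrix markers 0 were higher in siErbB4 (median -0.45). Of these 10% did not overlap between the groups, and 90% did not overlap between the replicates. Over all features 29% did not overlap between the groups and 55.4% did not overlap between the replicates. Nppa, Nppb and Ankrd1 lay higher in the same arrays as the summed cardiomyocyte markers, and Edn1 and Fhl1 higher in the same arrays as the summed fibroblast and smooth muscle markers. Other lists shared these directions. The endoderm sums were 8.36 in siErbB4 and 8.02 in siScr of replicate 2, against 5.25 and 4.76 in replicate 1. The neural sums were 3.94 and 6.15 in replicate 2, against 9.60 and 14.0 in replicate 1. They rested mainly on Tubb3, with 1.69 in siErbB4 and 2.50 in siScr of replicate 2, against 3.11 and 3.73 in those of replicate 1. Only 1 of 4 tested neural markers had replicate levels that did not overlap (25%), beside 55.4% of all features. The epicardial median difference was -0.96, though its sums did not separate by replicate number. Of the 4 epicardial markers 2 were well above background on all arrays, and 1, Wt1, was higher in replicate 2 (0.59). The part of cell composition in the members' differences was not tested, and in bulk RNA fewer cells of a type and less RNA per cell cannot be told apart.

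**Figure D4:**
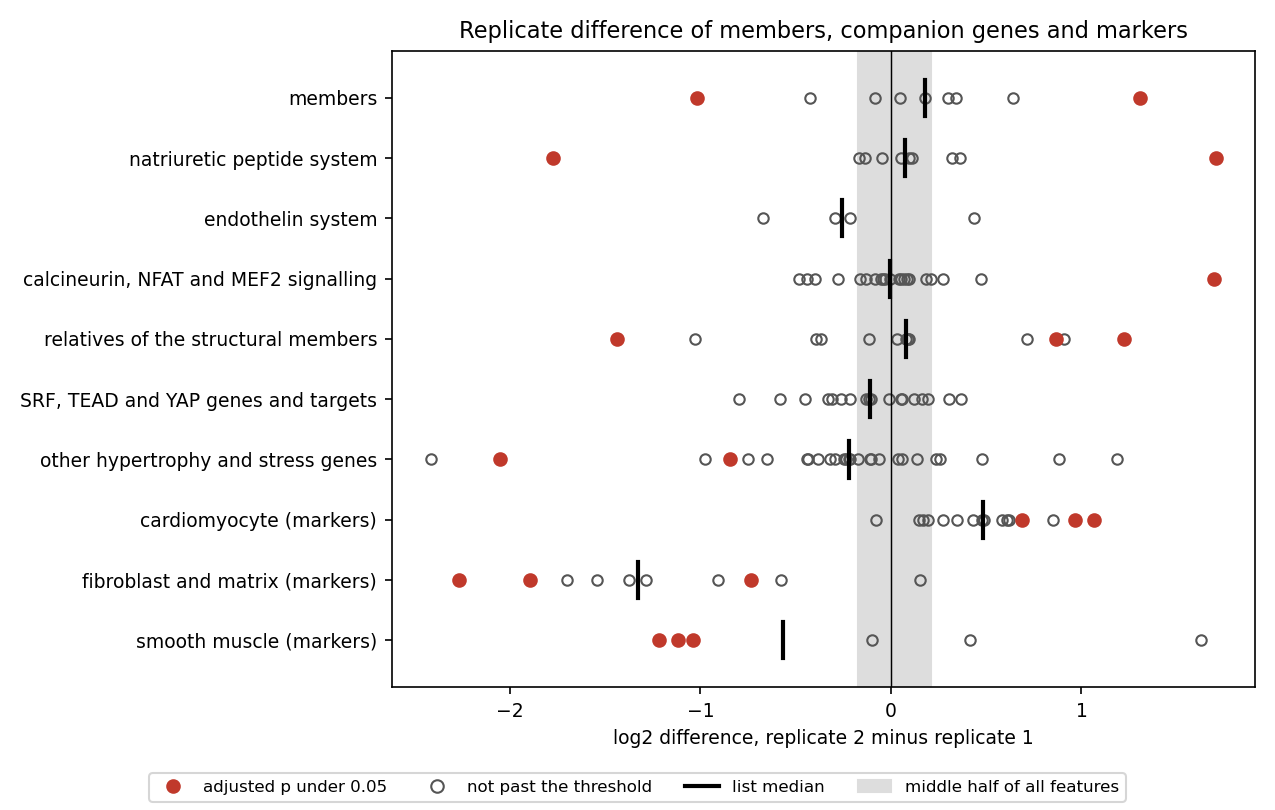
Log2 differences of replicate 2 minus replicate 1 for the 9 members, the 6 companion lists and 3 lists of cell type markers, 1 point per tested gene, filled where the limma adjusted p was under 0.05, with the list median as a bar and the middle 50% of all features (-0.17 to 0.21) shaded. The cardiomyocyte markers (median 0.48) lie mostly to the right and the fibroblast and matrix markers (median -1.33) mostly to the left.

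Only Nppa and Edn1 spanned at least 1 on the log2 scale over the 4 arrays, 1.62 and 1.23. For each, the 3 other named genes of 14991 with the most similar profile were taken by the root mean square distance between profiles centred on their own means, as a description over 4 arrays. The nearest to Nppa were Efcab11 (0.05), which was not well above background on siErbB4 1, Cpa4 (0.06) and Rgs8 (0.06). The nearest to Edn1 were Prl2c1 (0.02), Pls3 (0.02) and Tgfb3 (0.03), the last a TGF-beta family growth factor with 0.48 and -0.33 in siErbB4 and 0.83 and -0.32 in siScr.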

How the data were processed

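Total RNA was labelled with Cy3 and hybridised to 4 Agilent 1-colour arrays, 1 per sample, on 1 slide. Per the submitters' processing notes the arrays were read with Agilent Feature Extraction 10.7.1.1. The deposited processed intensity had its background subtracted by that software, per the file headers, and was not scaled between arrays. The authors' deposited value table holds log2 values, which equalled the log2 processed intensity minus the array's 75th percentile (largest difference 0.00291 over single-spot probes, column medians -3.86 to -3.81), so its scale, centring and direction were settled. From the scanner values, 1377 control spots of 44397 and outlier spots (131 to 179 per array) were left out, which removed 12 of 39429 probes, and repeated spots of 1 probe were averaged. Each array was scaled by its own 75th percentile. A probe was kept (25689 were) if both arrays of either group showed it well above background.

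Accessions were matched to RefSeq, which named 27498 probes and left 11919 unnamed. The brightest probe represented a gene, which gave 20725 features, 14992 of them named. The arrays' annotation uses another genome build than the RefSeq tables, so the only coordinates printed are those of promoters. Tests were two-sided and used lmFit and eBayes of limma 3.58.1 (R 4.3.3) on all 4 arrays with no covariate, with Benjamini-Hochberg adjustment over all features and a threshold of 0.05. They had 2 residual degrees of freedom, and the median SE was 0.18 for siErbB4 against siScr and 0.14 between replicates. The fit was tested on simulated data. Named were all members, Erbb4, the 2 genes with the lowest p of each companion list in each comparison, and the 3 nearest profiles of members spanning at least 1. Some genes that this rule names are counted in their lists and not reported here by name. Companion and marker lists came from textbook knowledge, and the members and lists were chosen with earlier results of these data known. Alternatives were normexp (offset 50), quantile and median scaling, the value table, other filters, the mean of probes, an intensity trend, each array left out, and the other label as a term. Slide as a block was not run, since there was 1 slide.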

Additional observations from a re-analysis of the deposited data

Results flagged for a closer look

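In 2 members the siErbB4 minus siScr difference had opposite signs in the replicates, and this contrast between replicates was not tested. For Nppb the difference was 0.03 in replicate 2 and -0.12 in replicate 1, which are 0.14 apart on the log2 scale. For Rcan1 it was 0.14 in replicate 2 and -0.62 in replicate 1, which are 0.76 apart. Over all features 38.4% had opposite signs.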

How the results depend on the processing

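Precision rests on 2 arrays a group (median SE 0.18 for siErbB4 against siScr), and a p that misses the threshold does not show equal levels. The count of features called for siErbB4 against siScr was 0 under all 13 alternatives, with 177 to 1545 features at an unadjusted p under 0.05. For replicate 2 against replicate 1 the count was 1084, against 1876 with normexp, 1947 with an intensity trend and 0 without the filter on dim probes (lowest adjusted p 0.119, 32388 features, 4649 at an unadjusted p under 0.05). Leaving out each array in turn gave 0 to 1539, with 0 without siScr 1, 0 without siScr 2, 73 without siErbB4 2 and 1539 without siErbB4 1. In these fits the lone array of a group is assumed to vary like the others. Members with opposite signs in the replicates numbered 5 with normexp, 4 with quantile normalization and 5 with median scaling, against 2.

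With arrays left out in turn, siErbB4 minus siScr ran from -1.04 to 0.41 for Nppa, -0.40 to 0.31 for Nppb, -0.28 to 0.13 for Ankrd1, -0.0939 to 0.0215 for Xirp1, -0.81 to 0.38 for Edn1, -0.521 to 0.0393 for Rcan1, -0.37 to 0.15 for Fhl1 and -0.0200 to 0.0334 for Flnc, and from 0.13 to 0.55 for Xirp2, the only member to keep its sign. Between replicates Rcan1 ran from -0.13 to 0.49. Signs also turned for Flnc with normexp (-0.014) and, between replicates, with quantile normalization (-0.012), and with the mean of probes for Cabin1 (0.047) and Ednrb (-0.112). The cause was not tested.

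The labels do not say that the replicate number marks a shared culture. Over the 20725 features, the deviations of the replicate 1 arrays from their group means correlated at 0.679. With 2 arrays a group, the replicate 2 deviations are the same values with the sign turned, so they add nothing. A fit with a replicate block called 0 features for siErbB4 against siScr (lowest adjusted p 0.0838, 1545 unadjusted), and the differences of the members, unchanged by construction, had intervals of -0.68 to 0.05 for Nppa and -0.01 to 0.69 for Xirp2 (adjusted p = 0.641 for both).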

Other observations

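Several genes of the companion lists, chosen after their values were seen, lay close to the threshold in replicate 2 against replicate 1. Skeletal alpha-actin Acta1, a fetal-type actin re-expressed in hypertrophy, had 3.04 in siErbB4 and 2.96 in siScr of replicate 2, against 3.74 and 4.21 in those of replicate 1, a difference of -0.98 (SE 0.19, limma adjusted p = 0.0610). It therefore lay lower in the arrays in which Nppa was higher. Myh7, the slow beta-myosin heavy chain, had 7.90 and 7.87 in replicate 2 against 7.41 and 7.41 in replicate 1, a difference of 0.48 (SE 0.10, limma adjusted p = 0.0778).

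The angiotensin receptor gene Agtr1a had -0.07 in siErbB4 and -0.23 in siScr of replicate 2, against -0.82 and -1.24 in those of replicate 1, a difference of 0.88 (SE 0.18, limma adjusted p = 0.0687). Within the LIM and filamin families, the cardiac Fhl2 differed by 0.91 (SE 0.19, limma adjusted p = 0.0728) where Fhl1 differed by -0.43, and Flna differed by -1.03 (SE 0.18, limma adjusted p = 0.0509) where Flnc differed by 0.05. Whether these differences differ from each other was not tested.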
